A study of Salmo salar with 18 samples.

Results

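The gills of Atlantic salmon fed the LAN4 diet were compared with those of fish fed the control diet (CD) at 6 h post-stress. The members were the 3 libraries titled LAN4 and the 3 titled CD at this sampling time, 6 of the 18 libraries of the series, each from 1 fish. CD was a commercial-like feed, and LAN4 was the same feed with a hydrolyzed product of the yeast Debaryomyces hansenii. Fish of both groups came from the same genetic line, ate their diet for 7 weeks and for 1 more week of acclimatization, and were then netted out of the water for 1 min and returned to their tanks, so no 6 h fish was without stress. The other 12 libraries were of the same diets at pre-stress and at 1 h post-stress. The comparison asked how the yeast diet changed gene expression in the gill late after a short hypoxia. Only the 42615 genes on chromosomes 1 to 6, 9 to 16, 19 and 20 (61.4% of 69389) were used, because the counts of the 6 h libraries stop partway along the genome. Nothing is said here of genes elsewhere. Each tank held fish of 1 diet, so tank and diet cannot be told apart. The tank of each sequenced fish was not stated in the sources used here, and the 3 fish of a group may have come from 1 tank.

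The gill filament is built on cartilage and carries lamellae in which blood runs between pillar cells, a kind of endothelial cell found only in gills. Ionocytes in its epithelium exchange salts with the water, and small striated and smooth muscles move the filaments. A piece of gill therefore holds RNA of epithelium, blood, vessels, connective tissue, cartilage, muscle and immune cells. In such bulk samples, fewer cells of a type and less RNA per cell cannot be told apart.

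The counts on these chromosomes summed to between 11983436 and 14644411 fragments in the 6 h libraries and to between 7323608 and 14396655 in the 12 others. The correlation of log2 values between 6 h libraries lay between 0.964 and 0.974 within a diet and between 0.947 and 0.968 across diets. The first principal component of the 6 libraries (37.2% of the variance) placed CD between -43.4 and -11.1 and LAN4 between 22.9 and 33.1. The 29 tested genes of ionocytes and ion transport summed to between 3830 and 4220 CPM in CD. In LAN4 their sum lay between 3800 and 4500 CPM (CPM, counts scaled to a common normalized library size). Of these genes, 19 had a positive and 10 a negative log2 fold change in LAN4, and 2 also stand in the erythrocyte marker list. At an unadjusted p under 0.05 by edgeR, 3 were higher (9.07% of all genes) and 2 lower (6.31%). The lowest p were those of atp1b1a (log2 fold change 0.58, Benjamini-Hochberg adjusted p = 0.0607 by edgeR) and atp1a2a (2.33, adjusted p = 0.157). The latter had low counts, 27, 7 and 4 in CD and 65, 68 and 54 in LAN4. All 6 h libraries were on sequencing lane 3, so lane did not separate the diets.

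Among 23153 genes tested, LAN4 was above CD in 118 and below it in 18 at 6 h post-stress. These DEGs had an adjusted p (Benjamini-Hochberg) under 0.05 in the quasi-likelihood test of edgeR, and they were 0.51% of the tested genes in the upward and 0.0777% in the downward direction. The higher genes had log2 fold changes between 0.49 and 3.50 (median 1.00), and 68 of them have a LOC number as their symbol. In 3 of them each fish of a diet had 3 counts or fewer, so that their fitted changes are uncertain. Of all called genes, 7 belong to the 35 gene lists measured, which held 475 tested members. All 7 were higher, as were 118 of all 136, and belong to lists of the extracellular matrix, its enzymes and endothelial cells. The lists were matched by RefSeq symbol or synonym, so called genes without a matching name could not enter them. The lower genes had changes between -1.68 and -0.49, and all 18 were without a RefSeq symbol other than a LOC number. In all 136 genes the fish of the diets did not overlap, beside 10.5% (LAN4 above) and 8.77% (LAN4 below) of all genes. The genes were called on these same values, so their separation adds no support. The lowest adjusted p was 0.0344 and the highest 0.0492, so the calls lie close to the threshold. At an unadjusted p under 0.05, 2099 genes (9.07%) were higher and 1462 (6.31%) lower. The number of calls rested on single fish. By edgeR, 0 genes were called without CD replicate 2 (2867 at an unadjusted p under 0.05), without LAN4 replicate 2 (2534) or without LAN4 replicate 3 (3237), 39 were higher and 30 lower without CD replicate 3, 61 and 13 without LAN4 replicate 1, and 109 and 7 without CD replicate 1. In that order, 23 and 11, 42 and 7, and 56 and 5 of these were among the 118 and 18. With only the 6 libraries of 6 h in the model 31 were higher and 2 lower, of which 12 and 1 were among the 118 and 18. DESeq2 on all 18 libraries called 593 and 218, among them all of the 118 and 18. Each of the 136 genes kept its direction in the 12 alternative analyses. Since these used the same fish, whose diets did not overlap in these genes, that outcome was nearly fixed in advance and adds no support.

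**Figure D1:**
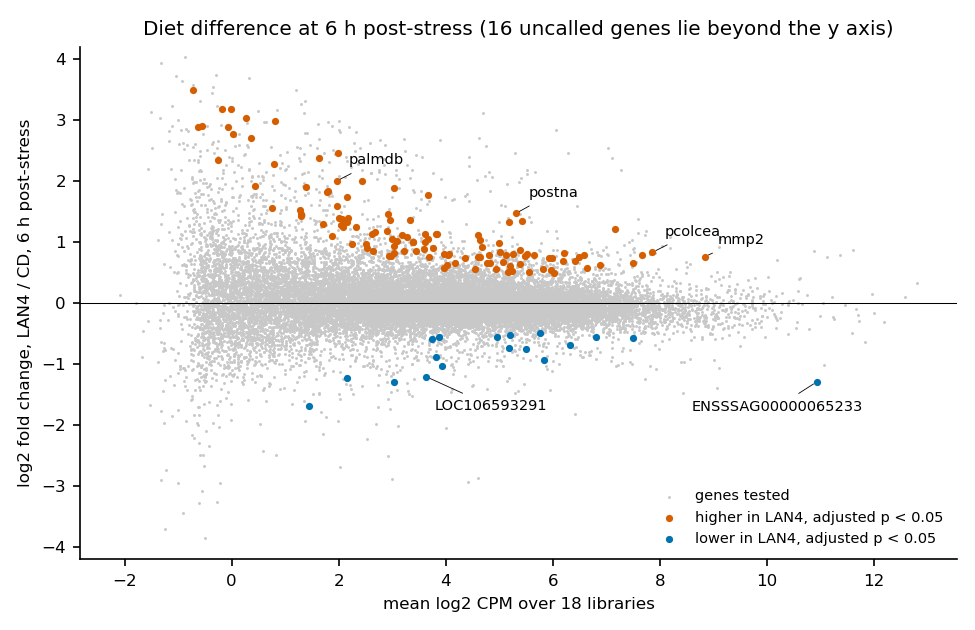
Each point is 1 of 23153 genes, with its mean log2 CPM over the 18 libraries on the x axis and its log2 fold change of LAN4 over CD at 6 h post-stress on the y axis. The 118 genes called higher (orange) extend to the low end of expression, and the 18 called lower (blue) include the abundant ENSSSAG00000065233 at -1.29; 16 genes that were not called lie beyond the y axis.

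Among the 12 largest increases of genes with a mean log2 CPM of at least 1, 4 with a symbol are described here, and 2 of these, tri55 and mlrb, are known from contractile structures in other vertebrates. The gene palmdb (ENSSSAG00000068661, chromosome 19, 14818444 to 14867603) encodes palmdelphin, a cytosolic protein related to paralemmin. It was measured at 1.97, 1.37 and 1.29 CPM in the CD fish and at 5.78, 6.19 and 6.75 CPM in the LAN4 fish. The lowest LAN4 fish was far above the highest CD fish, and the log2 fold change was 2.00 with its standard error (SE) of 0.28 and an adjusted p of 0.0344 by edgeR. It was called in 8 of the 12 alternative analyses, the highest number for any called gene and shared with LOC106610834 and LOC106593291.

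The ubiquitin ligase tri55 (RefSeq synonym MuRF2, ENSSSAG00000079038, chromosome 3, 22771116 to 22778018) is a protein of the muscle sarcomere in mammals. It was measured at 2.95, 1.59 and 1.45 CPM in CD and at 7.52, 4.88 and 5.79 CPM in LAN4. The diets did not overlap, which was required for naming, and CD replicate 1 was the highest control (log2 fold change 1.58, SE 0.29, adjusted p = 0.0344 by edgeR). The myosin regulatory light chain gene mlrb (ENSSSAG00000062577, chromosome 4, 59622192 to 59636476) had 2.32, 1.88 and 2.26 CPM in CD and 4.79, 7.63 and 9.12 CPM in LAN4. Its LAN4 fish were spread more widely than its CD fish, with a log2 fold change of 1.74 (SE 0.32, adjusted p = 0.0344 by edgeR). The last of these, sh3bg (ENSSSAG00000050776, chromosome 9), lay between 0.889 and 1.55 CPM in CD and between 3.22 and 3.93 CPM in LAN4, a log2 fold change of 1.53.

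Of the 12 increases, 7 were of genes whose symbol is a LOC number, with log2 fold changes between 1.77 for LOC106582196 and 2.46 for LOC106605378. RefSeq lists the latter as a transcribed pseudogene. The genes LOC106600715, LOC106592612, LOC106561640 and LOC106572619 had changes of 2.37, 2.00, 1.90 and 1.83. LOC106582211 and LOC106582196 are neighbours on opposite strands of chromosome 2, 139 bases apart (37330295 to 37333126 and 37333265 to 37357567). The first was measured at 2.67, 1.15 and 0.889 CPM in CD and at 5.45, 6.39 and 5.12 CPM in LAN4, and the second at 5.90, 5.92 and 4.28 CPM in CD and at 15.2, 21.6 and 18.3 CPM in LAN4. Both were thus above every CD fish in every LAN4 fish.

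Genes of the skeletal muscle sarcomere and of its calcium handling were measured as a list of 22 tested genes. All 22 had a positive log2 fold change, with a median of 2.05 beside -0.01 over all genes tested, and 19 had an unadjusted p under 0.05 where 9.07% of all genes did. None of the 22 passed the adjusted threshold. The 2 with the lowest p were hhatla, a transmembrane protein of the acyltransferase family, with 0.984, 0.216 and 0.566 CPM in CD and 1.82, 2.68 and 1.71 CPM in LAN4 (adjusted p = 0.0737 by edgeR), and smyd1b, a methyltransferase needed for sarcomere assembly in zebrafish. The latter had 1.34, 0.216 and 0.485 CPM in CD and 4.54, 4.54 and 3.19 CPM in LAN4, with a log2 fold change of 2.56 (SE 0.66, adjusted p = 0.0764). The LAN4 fish all lay above the CD fish for 17 of the 22, as they did for 10.5% of all genes. Summed over the list, the level was 970, 704 and 710 CPM in the CD fish and 1730, 1690 and 1320 CPM in the LAN4 fish. CD replicate 1 thus had the most muscle RNA of the controls, and without it the median of the list was 3.01.

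The creatine kinases, which buffer ATP in muscle and other tissues with high demand, had positive changes in all 3 tested genes of their list, with a median of 2.18. The member with the lowest p was ckba, with 9.35, 13.6 and 6.87 CPM in CD and 17, 19.6 and 20.5 CPM in LAN4 (log2 fold change 0.94, SE 0.25, adjusted p = 0.0838 by edgeR). The mitochondrial ckmt2 had 9.77, 3.61 and 3.72 CPM in CD and 21.8, 28.9 and 27.4 CPM in LAN4 (log2 fold change 2.18, SE 0.64, adjusted p = 0.119 by edgeR). Neither passed the threshold. In both, every LAN4 fish lay above every CD fish, as held for 10.5% of all genes. A gene called higher outside the list, kcrt, named after its values were seen, also bears a creatine kinase symbol. Its log2 fold change lay between 0.66 and 0.84 in the 12 alternative analyses, and 4 of them called it. Among 15 glycolytic enzymes the median was 0.08 and 3 had an unadjusted p under 0.05, all higher (9.07% of all genes). The muscle phosphofructokinase pfkma was 1 of them, with 6.32, 1.44 and 1.21 CPM in CD and 16.5, 13.4 and 10.1 CPM in LAN4 (adjusted p = 0.194 by edgeR). So was LOC100136417, whose RefSeq synonym is gapdh, with a log2 fold change of 1.67 (adjusted p = 0.161).

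Other called genes of low expression, named after their values were seen, belong to muscle by their known roles. The gene chrnd, for the delta subunit of the acetylcholine receptor at the nerve-muscle junction, had 5, 2 and 2 counts in CD and 27, 25 and 16 in LAN4. For alpk2, an alpha kinase known from the heart, the counts were 11, 6 and 2 in CD and 69, 72 and 31 in LAN4. The transcription factor mef2cb, a regulator of muscle genes, was expressed more highly, between 4.76 and 5.74 CPM in CD and between 9.49 and 12.0 CPM in LAN4, with a log2 fold change of 1.01 (adjusted p = 0.0411 by edgeR). How far the muscle content of the samples bears on these called genes was not tested.

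**Figure D2:**
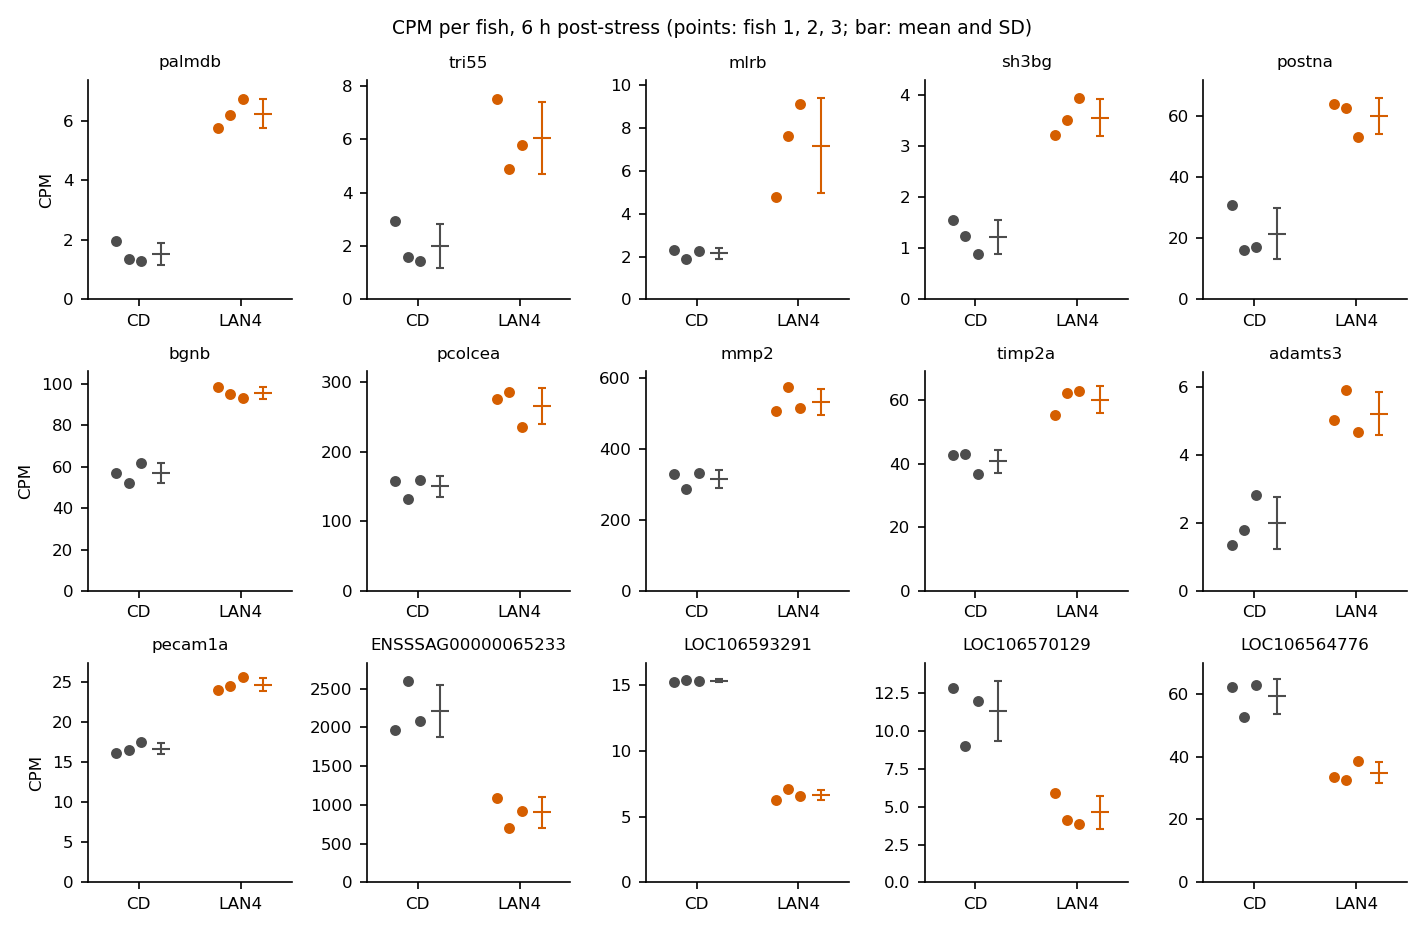
The panels show the CPM of 15 called genes in each fish at 6 h post-stress, with CD in grey and LAN4 in orange, and beside them the mean with its SD (n = 3). In the first 11 panels the LAN4 fish lie above the CD fish, and in the last 4 below, without overlap as in all called genes.

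Among genes of the extracellular matrix and its enzymes, 6 listed members were called. Periostin, encoded by postna (ENSSSAG00000008104, chromosome 11, 103161000 to 103261326), is a matricellular protein of collagen-rich tissue. It was measured at 31.0, 16.2 and 17.2 CPM in CD and at 63.7, 62.6 and 53.0 CPM in LAN4. The lowest LAN4 fish was well above the highest CD fish, and the log2 fold change was 1.47 (SE 0.27, adjusted p = 0.0363 by edgeR). The small proteoglycan biglycan, encoded by bgnb (ENSSSAG00000076802, chromosome 13, 14892961 to 14922272), had 57.1, 51.9 and 61.7 CPM in CD and 98.6, 95.2 and 93.0 CPM in LAN4. Its fish differed little within a diet, with a log2 fold change of 0.75 (SE 0.16, adjusted p = 0.0427 by edgeR).

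These were 2 of 24 glycoproteins and proteoglycans tested, beside 0.51% of all genes called higher. Of the 24, 20 had a positive change, and in 15 every LAN4 fish lay above every CD fish. This separation held for 10.5% of all genes. The median of the list was 0.55. At an unadjusted p under 0.05, 14 members were higher (9.07% of all genes) and 1 was lower (6.31%). The latter was lamb4, a laminin chain, with only 29, 11 and 32 counts in CD and 2, 5 and 2 in LAN4, a log2 fold change of -2.96 (adjusted p = 0.143 by edgeR).

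Collagen is secreted as a precursor, cut at its ends and cross-linked. Procollagen C-endopeptidase enhancer, encoded by pcolcea (ENSSSAG00000077920, chromosome 4, 43840155 to 43844278), speeds the removal of the C-terminal propeptide. It was measured at 158, 132 and 159 CPM in CD and at 275, 286 and 236 CPM in LAN4. The groups were far apart for their spread, with a log2 fold change of 0.83 (SE 0.13, adjusted p = 0.0344 by edgeR). The protease adamts3 (ENSSSAG00000047659, chromosome 15, 12585340 to 12882483) cuts the N-terminal propeptide in mammals. It had 1.34, 1.80 and 2.83 CPM in CD and 5.04, 5.91 and 4.67 CPM in LAN4, a log2 fold change of 1.40 (SE 0.29, adjusted p = 0.0409 by edgeR).

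Of the 11 tested genes of collagen modification and cross-linking, pcolcea was the only one called, beside 0.51% of all genes called higher. A positive change was found in 10, and the median was 0.40. In these 10 the LAN4 fish all lay above the CD fish, as they did for 10.5% of all genes. The lysyl oxidase gene loxl3b, which had the next lowest p, had 68.2, 53.6 and 67.3 CPM in CD and 87.3, 107 and 82.3 CPM in LAN4 (log2 fold change 0.55, SE 0.15, adjusted p = 0.0936 by edgeR). The prolyl 3-hydroxylase gene p3h2 was the exception, with a log2 fold change of -0.34 and every LAN4 fish below every CD fish, as held for 8.77% of all genes.

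No collagen of the list was called, and collagens among the genes with only a LOC number could not be recognized. Of 11 tested, 10 had a positive change with a median of 0.84, and 7 were higher at an unadjusted p under 0.05 (9.07% of all genes). The lowest p was that of col27a1a, a fibrillar collagen of cartilage, with 5.62, 4.40 and 7.11 CPM in CD and 14.9, 16.5 and 18 CPM in LAN4 (log2 fold change 1.53, SE 0.40, adjusted p = 0.0823 by edgeR). It was followed by col6a2, a chain of the microfibrillar type VI, with 143, 88.5 and 163 CPM in CD and 283, 263 and 314 CPM in LAN4 (log2 fold change 1.12, SE 0.31, adjusted p = 0.0995 by edgeR). Both diets were clearly apart in these fish. The abundant type I chain col1a1a was measured at 1430, 852 and 1560 CPM in CD and at 2360, 2610 and 1930 CPM in LAN4 (adjusted p = 0.122 by edgeR). CD replicate 2 was the lowest fish for this chain and for col6a2.

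Matrix metalloproteinases degrade the matrix, and TIMPs inhibit them. The gelatinase mmp2 (ENSSSAG00000047363, chromosome 11, 30159248 to 30180897) was measured at 328, 286 and 332 CPM in CD and at 507, 574 and 516 CPM in LAN4, a log2 fold change of 0.76 (SE 0.14, adjusted p = 0.0344 by edgeR). The inhibitor timp2a (ENSSSAG00000085941, chromosome 1, 80996238 to 81021063), which in mammals also takes part in the activation of MMP2, had 42.6, 42.9 and 36.6 CPM in CD and 55.1, 62.1 and 62.8 CPM in LAN4, a log2 fold change of 0.56 (SE 0.10, adjusted p = 0.0344 by edgeR). Enzyme and inhibitor were thus higher in the same fish. With adamts3 they were 3 called members of 23 tested, beside 0.51% of all genes called higher. Of the 23, 15 had a positive change (median 0.22). At an unadjusted p under 0.05, 7 were higher (9.07% of all genes) and 1 was lower (6.31%). The other metalloproteinases were mixed in direction. The change was 1.78 for mmp25a, which had at most 12 counts in any 6 h fish (adjusted p = 0.127 by edgeR), and -0.47 for mmp30.

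The cartilage list gave a median of 0.89 over 10 genes, 7 of which also stand in the collagen or glycoprotein list. All 10 were positive and 6 had an unadjusted p under 0.05 (9.07% of all genes were higher at it), but none was called. The link protein hapln1b, which ties proteoglycan to hyaluronan, had 10.8, 8.30 and 12.0 CPM in CD and 33, 31.1 and 35.5 CPM in LAN4 (log2 fold change 1.68, SE 0.43, adjusted p = 0.0822 by edgeR). The type X collagen gene col10a1a had 1690, 1710 and 2470 CPM in CD and 3820, 3450 and 3490 CPM in LAN4 (log2 fold change 0.88, adjusted p = 0.13). Summed over the list, the cartilage level was 6440, 6010 and 8570 CPM in CD and 10400, 10200 and 9640 CPM in LAN4. All LAN4 fish were above all CD fish, as for the called matrix genes, and the part of cartilage in their difference was not tested.

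Smooth muscle actin (acta2) had 155, 118 and 161 CPM in CD and 323, 311 and 259 CPM in LAN4 (log2 fold change 1.04, SE 0.23), and missed the threshold with an adjusted p of 0.0507 by edgeR. The smoothelin gene smtna, also of contractile smooth muscle, lay between 5.17 and 8.92 CPM in CD and between 11.4 and 12.8 CPM in LAN4 (adjusted p = 0.101). The summed level of the 3 smooth muscle genes was between 131 and 190 CPM in CD and between 287 and 370 CPM in LAN4.

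Among vessel genes, the adhesion molecule of endothelial cells encoded by pecam1a (ENSSSAG00000003562, chromosome 6, 32020595 to 32029249) was measured at 16.2, 16.5 and 17.5 CPM in CD and at 24.0, 24.5 and 25.6 CPM in LAN4. The fish of a diet were nearly alike, and the log2 fold change was 0.56 (SE 0.12, adjusted p = 0.0409 by edgeR). All 12 tested genes of endothelial and pillar cells had a positive change (median 0.53). Of these, 8 had an unadjusted p under 0.05 (9.07% of all genes were higher at it). Only pecam1a was called, beside 0.51% of all genes called higher. The junction protein gene esama had 41.6, 39.8 and 57.0 CPM in CD and 61.1, 85.1 and 71.7 CPM in LAN4 (log2 fold change 0.66, SE 0.15, adjusted p = 0.0507 by edgeR).

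**Figure D3:**
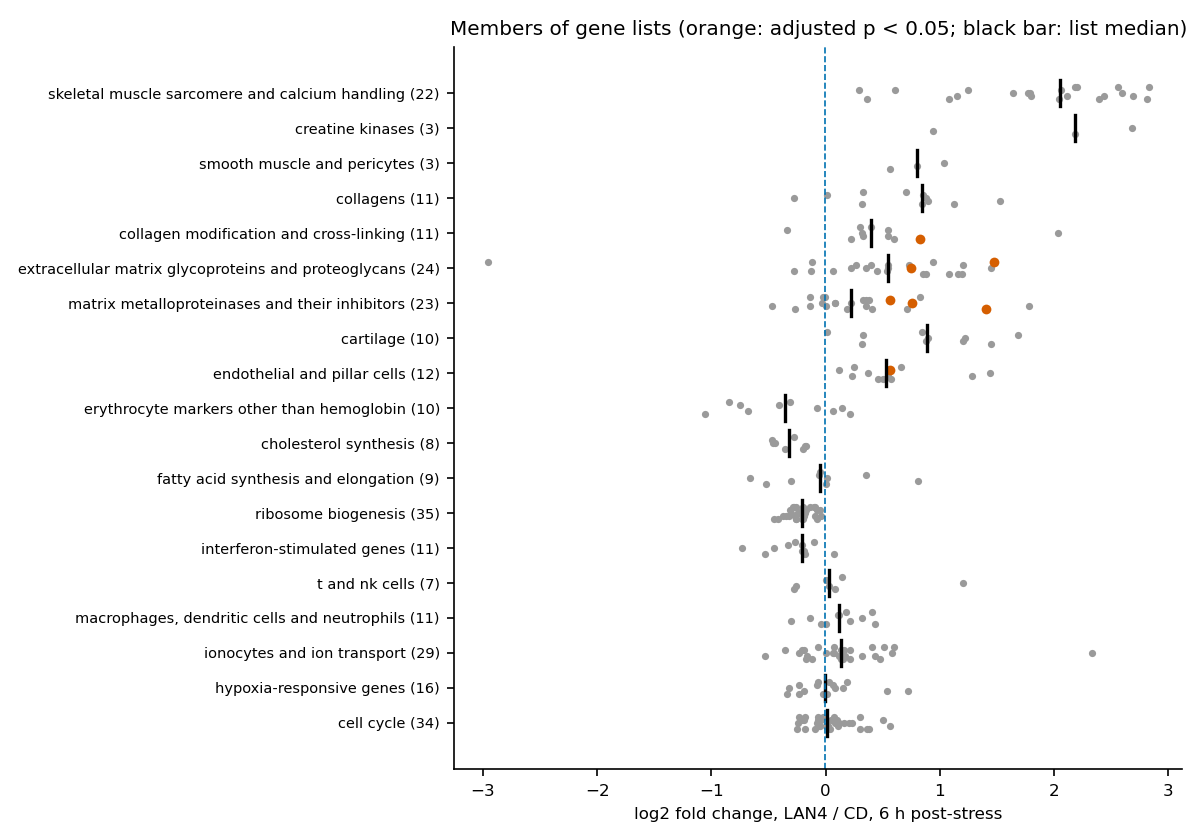
Each point is a tested member of a gene list, with its log2 fold change of LAN4 over CD at 6 h post-stress on the x axis, the number of members in parentheses, and the median of all genes tested as a dashed line. The medians of the muscle, matrix, cartilage and endothelial lists lie between 0.22 and 2.18, those of ribosome biogenesis, cholesterol synthesis and erythrocyte markers between -0.36 and -0.21, and the 7 called members (orange) belong to 4 lists.

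Further called genes of connective tissue and vessels, again named after their values were seen, include itga5, the alpha subunit of the fibronectin receptor. It lay between 35.6 and 54.9 CPM in CD and between 70.9 and 88.4 CPM in LAN4 (log2 fold change 0.74, adjusted p = 0.0401 by edgeR). The gene podn, for the leucine-rich proteoglycan podocan, had a change of 1.13, and LOC100195362, whose RefSeq synonym bgh3 denotes a matrix protein induced by TGF-beta, one of 0.79. The sclerostin gene sost, an inhibitor of Wnt signalling, lay between 32.5 and 44.0 CPM in CD and between 60.8 and 74.7 CPM in LAN4 (0.80). The gene fstl3, for an inhibitor of activin, lay between 23.2 and 34.2 CPM in CD and between 36.7 and 57.5 CPM in LAN4 (0.79). The mesenchymal transcription factor prrx1b had a change of 0.86, the lysophosphatidic acid receptor lpar1 one of 0.90, and mcamb, an adhesion molecule of vessels, one of 0.67. A called gene outside these tissues, irg1l, also named after its values were seen, is related to the itaconate-forming enzyme of activated macrophages. It lay between 3.54 and 5.66 CPM in CD and between 9.42 and 15.1 CPM in LAN4 (log2 fold change 1.45, adjusted p = 0.0421).

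The 12 largest decreases were all of genes without a descriptive symbol. ENSSSAG00000065233 (chromosome 3, 64132728 to 64133649) was the most abundant, with 1960, 2600 and 2080 CPM in CD and 1090, 700 and 918 CPM in LAN4. The lowest CD fish was well above the highest LAN4 fish, and the log2 fold change was -1.29 (SE 0.27, adjusted p = 0.0434 by edgeR). It pairs with no RefSeq gene and lies near LOC101448011 (RefSeq synonym hbb1, a beta globin), which had 207, 327 and 146 CPM in CD and 62.1, 113 and 159 CPM in LAN4. The diets overlapped in the globin, whose log2 fold change was -1.02 (SE 0.42, adjusted p = 0.256 by edgeR).

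The fish of a diet were close together in LOC106593291 (ENSSSAG00000084794, chromosome 2, 74482864 to 74512925). It was measured at 15.2, 15.4 and 15.3 CPM in CD and at 6.28, 7.08 and 6.53 CPM in LAN4, a log2 fold change of -1.21 (SE 0.21, adjusted p = 0.0344 by edgeR). It was called in 8 of the 12 alternatives. LOC106564776 (ENSSSAG00000073297, chromosome 12, 37952045 to 37982678) had 62.1, 52.7 and 62.6 CPM in CD and 33.6, 32.5 and 38.6 CPM in LAN4 (-0.76, SE 0.12, adjusted p = 0.0344). The largest decrease was that of ENSSSAG00000102345 (chromosome 19, 58953386 to 58960380), a gene of low expression with 5.48, 6.06 and 2.91 CPM in CD and 1.74, 1.58 and 1.19 CPM in LAN4 (-1.68, SE 0.31, adjusted p = 0.0344). LOC106570129 on chromosome 14 had 12.8, 9.02 and 12.0 CPM in CD and 5.87, 4.12 and 3.86 CPM in LAN4, with a change of -1.29.

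The other 7 named decreases were between -1.23 (LOC106595779) and -0.59 (ENSSSAG00000063608). They were LOC106580917 (-1.03), ENSSSAG00000078696 (-0.94), LOC106596625 (-0.88), LOC106565012 (-0.73) and LOC123726821 (-0.68) besides these. Some genes lower in LAN4 lie beside genes that were higher, a pattern named after the values were seen. LOC106605228 and LOC106605227 stand 67 bases apart on the same strand of chromosome 5 (56734880 to 56737859 and 56737926 to 56744815). The first had 45.3, 46.9 and 38.4 CPM in CD and 32.9, 27.3 and 31.1 CPM in LAN4 (-0.52), and the second 8.29, 9.81 and 8.08 CPM in CD and 11.9, 16.9 and 16.4 CPM in LAN4 (0.79). On chromosome 6, LOC106596625 lies 3653 bases from LOC123743428, which had 65.5, 63.0 and 62.9 CPM in CD and 109, 102 and 97.8 CPM in LAN4 (0.69, adjusted p = 0.0344 by edgeR).

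The lists of ribosome biogenesis, ribosomal proteins, oxidative phosphorylation, cholesterol synthesis and fatty acid synthesis had medians below 0, and none of their members was called. In ribosome biogenesis, 0 of 35 genes had a positive change, the median was -0.21, and 12 were lower at an unadjusted p under 0.05 (6.31% of all genes). The nucleolar protein gene utp18, of the complex that processes the small ribosomal subunit, had 38.3, 40.6 and 37.2 CPM in CD and 30.5, 31.1 and 28.2 CPM in LAN4 (log2 fold change -0.37, SE 0.09, adjusted p = 0.069 by edgeR). The nucleolar gene noc2l had 55.4, 55.9 and 54.0 CPM in CD and 46.8, 41.4 and 41.6 CPM in LAN4 (-0.35, adjusted p = 0.0803). For both genes the differences were small and the fish of a diet close together. The medians were -0.18 for 28 cytosolic ribosomal proteins and -0.16 for 22 genes of oxidative phosphorylation. At an unadjusted p under 0.05, 1 member of each was lower (6.31% of all genes) and 0 were higher (9.07%). The lowest p were those of rpl13a and rpl36a (adjusted p = 0.171 and 0.333 by edgeR) and of ndufb5 and ndufa7 (0.258 and 0.336).

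In cholesterol synthesis 0 of 8 genes had a positive change (median -0.32). The isomerase gene idi1 had 21.1, 19.9 and 20.2 CPM in CD and 17.4, 14.2 and 13.5 CPM in LAN4 (log2 fold change -0.44, SE 0.13, adjusted p = 0.102 by edgeR). The desaturase gene sc5d lay between 28.4 and 36.4 CPM in CD and at or below 26.1 CPM in LAN4 (-0.46, adjusted p = 0.112). Fatty acid synthesis and elongation had a median of -0.05 over 9 genes. There, hsd17b12a, an enzyme of the elongation cycle, lay between 227 and 280 CPM in CD and between 169 and 178 CPM in LAN4 (-0.52, SE 0.14, adjusted p = 0.0925). The malic enzyme me1, which supplies NADPH, went the other way with 4.50, 6.21 and 5.49 CPM in CD and 9.75, 9.69 and 9.05 CPM in LAN4 (0.81, SE 0.26, adjusted p = 0.132).

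Markers of red blood cells other than hemoglobin had a median of -0.36 over 10 genes, 3 of them positive. The transferrin receptor tfr1a, which takes up iron, had 286, 266 and 292 CPM in CD and 197, 176 and 152 CPM in LAN4 (log2 fold change -0.68, SE 0.18, adjusted p = 0.0778 by edgeR). The heme synthesis gene alas2 had 736, 1240 and 567 CPM in CD and 264, 481 and 476 CPM in LAN4 (-1.06, SE 0.28, adjusted p = 0.0823). In both, CD fish were above LAN4 fish without overlap. The summed level of the list was between 1860 and 2600 CPM in CD and between 1440 and 1970 CPM in LAN4, and beside ENSSSAG00000065233 its part in that decrease was not tested. Glutathione and antioxidant enzymes had a median of -0.15 over 18 genes, and 4 were lower at an unadjusted p under 0.05 (6.31% of all genes). Of these gsto1, a glutathione transferase, had the lowest p, between 172 and 298 CPM in CD and between 142 and 163 CPM in LAN4 (adjusted p = 0.157), followed by mgst2 (adjusted p = 0.201).

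The medians of immune cell markers were 0.03 for 7 genes of T and NK cells and 0.08 for 6 of B and plasma cells. For 11 of macrophages, dendritic cells and neutrophils the median was 0.12. At an unadjusted p under 0.05 these lists held 0 genes, 1 higher gene and 1 lower gene, in that order. Over all genes, 9.07% were higher and 6.31% lower at it. In the macrophage list the MHC class II chaperone cd74a had 4920, 5510 and 4100 CPM in CD and 3770, 3860 and 4140 CPM in LAN4, with overlap (adjusted p = 0.279 by edgeR), and the lysozyme gene lyz had an adjusted p of 0.462. In the B cell list the receptor tnfrsf13b lay between 0.141 and 0.216 CPM in CD and between 0.593 and 0.893 CPM in LAN4 (adjusted p = 0.116), and cd37 had an adjusted p of 0.665. The lowest p of the T and NK cell list were those of the perforin gene prf1.3 and of tbx21, with adjusted p of 0.349 and 0.727. Of 11 interferon-stimulated genes 1 was positive (median -0.21). The transcription factor irf1b had 180, 205 and 154 CPM in CD and 137, 81.2 and 105 CPM in LAN4 (log2 fold change -0.73, SE 0.20, adjusted p = 0.0867). Its paralog irf-1 had a change of -0.45 (adjusted p = 0.261).

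Genes that respond to hypoxia were near the median of all genes, with -0.01 over 16 genes, 8 of them positive. The growth factor gene vegfab, a target of hypoxia-inducible factors, had 41.4, 49.6 and 41.3 CPM in CD and 39.6, 33.8 and 31.2 CPM in LAN4 (log2 fold change -0.34, SE 0.12, adjusted p = 0.159 by edgeR). The next lowest p was that of pfkfb4a (adjusted p = 0.379). The 7 glucocorticoid-responsive genes had a median of -0.16, with 1 lower at an unadjusted p under 0.05 (6.31% of all genes). This was the cell cycle inhibitor cdkn1a, with 8.85, 8.80 and 9.21 CPM in CD and 8.10, 4.95 and 6.01 CPM in LAN4 (adjusted p = 0.257), before cebpb (adjusted p = 0.562). Over 34 cell cycle genes the median was 0.01, and top2a and tpx2 had the lowest p (adjusted p = 0.249 and 0.362).

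The diet difference of the called genes was then read at the other sampling times. The fish compared there were others, but they shared the model with the 6 h fish, and entered the filter and the estimate of the spread behind the 6 h calls. Of the 118 genes higher at 6 h, 115 had a positive diet difference at pre-stress (97.5%, beside 49.3% of all genes tested), and the median log2 fold change was 0.57. At an unadjusted p under 0.05, 90 of the 118 differed, beside 5.93% of all genes higher and 3.35% lower. At 1 h post-stress 53 were positive (44.9%, beside 49.9% of all genes), with a median of -0.03, and 7 were higher and 11 lower at an unadjusted p under 0.05 (4.73% and 3.58% of all genes). These genes are not independent of each other. Of the 18 genes lower at 6 h, 14 had a negative difference at pre-stress (median -0.13) and 14 a positive one at 1 h (median 0.17).

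**Figure D4:**
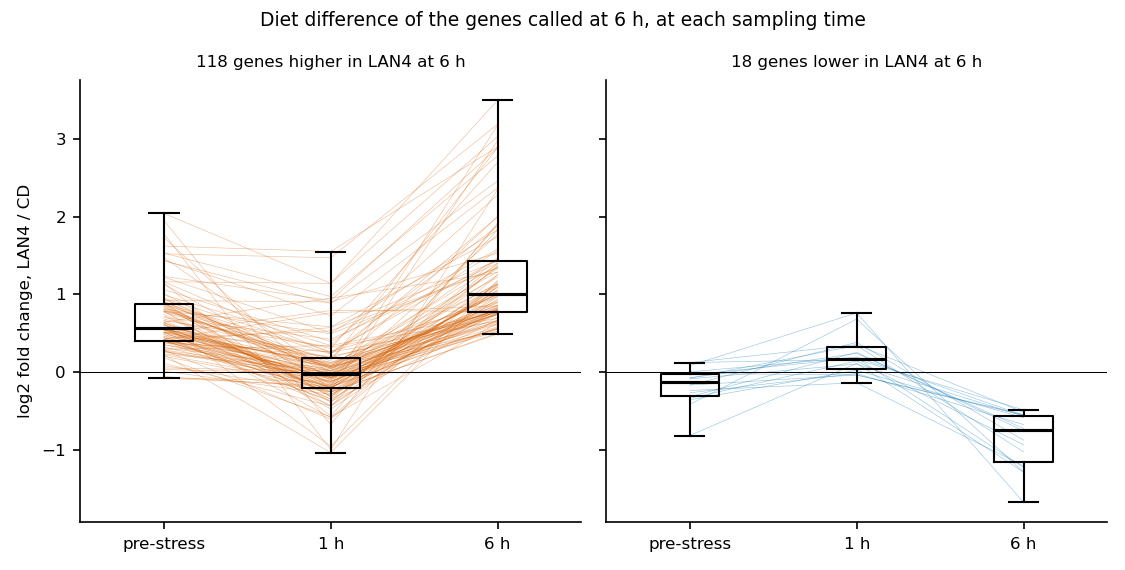
Each line is a called gene, with its log2 fold change of LAN4 over CD on the y axis at pre-stress, 1 h and 6 h, and the boxes give the median, the quartiles and the range. For the 118 higher genes the medians are 0.57, -0.03 and 1.00, and for the 18 lower genes -0.13, 0.17 and -0.75; the 6 h values are those by which the genes were called.

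The matrix and vessel genes followed this course. The log2 fold change of postna was 1.47 at pre-stress (SE 0.27), -0.02 at 1 h (0.26) and 1.47 at 6 h. For mmp2 the values were 0.53, -0.08 and 0.76, for pcolcea 0.56, 0.05 and 0.83, and for pecam1a 0.26, -0.12 and 0.56. The collagens as a list had medians of 0.60, -0.12 and 0.84, and the endothelial and pillar cell genes 0.12, -0.23 and 0.53. The skeletal muscle list did not reverse at 1 h, with medians of 1.25, 1.14 and 2.05 and with summed levels between 875 and 1050 CPM in CD and between 1120 and 1520 CPM in LAN4 at that time. The list of erythrocyte markers had medians of 0.02, 0.10 and -0.36. Ribosome biogenesis had -0.18, 0.00 and -0.21.

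**Figure D5:**
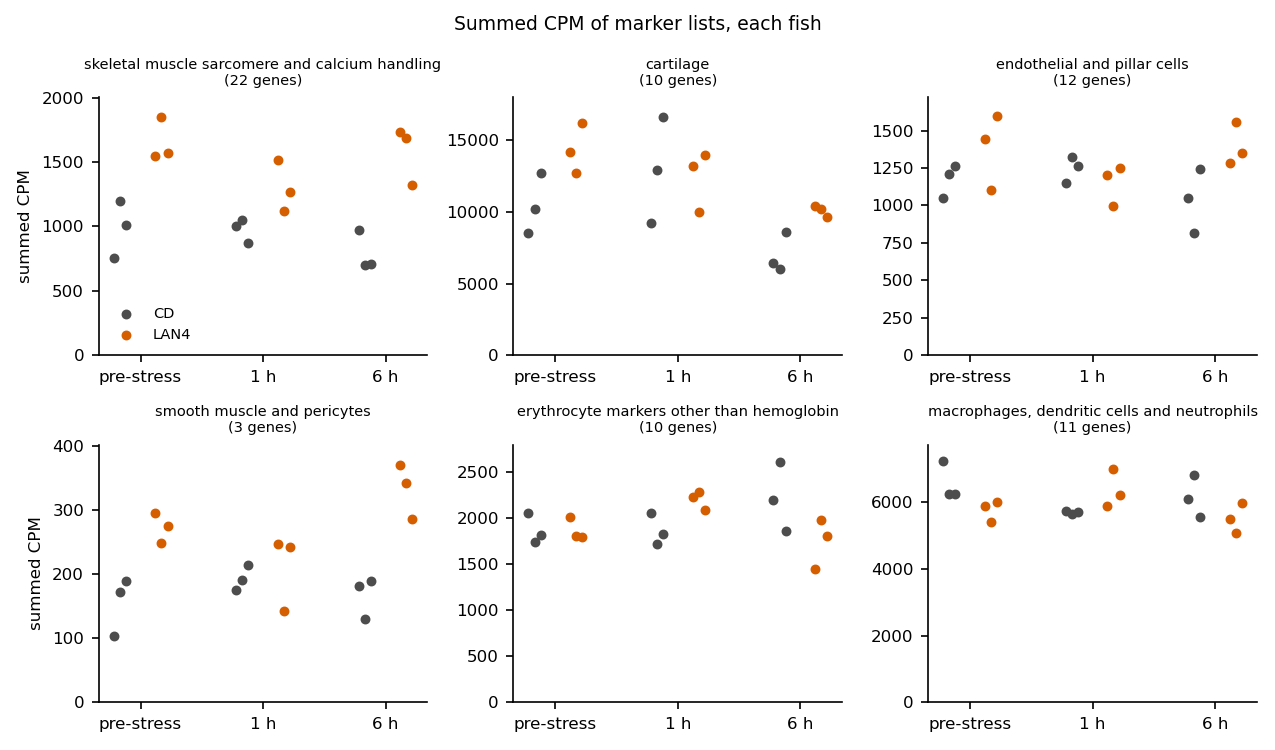
Each point is the summed CPM of a marker list in 1 fish, for CD (grey) and LAN4 (orange) at pre-stress, 1 h and 6 h post-stress. At 6 h the LAN4 fish lie above the CD fish for skeletal muscle (1320 to 1730 against 704 to 970), cartilage, endothelial and pillar cells and smooth muscle, and the diets overlap for erythrocyte markers and macrophages.

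Whether the diet difference itself changed was tested as an interaction of diet and sampling time. From 1 h to 6 h it changed in 4 genes (0.0173% of those tested), upward in 3 and downward in 1, while 3916 reached an unadjusted p under 0.05. The 3 upward genes, ENSSSAG00000092807, LOC106565529 and LOC106591130, were also among the 118. From pre-stress to 6 h it changed in 1 gene (0.00432%), and 985 had an unadjusted p under 0.05. None of the 136 genes called at 6 h was shown by edgeR to differ more between the diets at 6 h than at pre-stress. Over all 23153 genes tested, DESeq2 called 2 genes upward and 6 downward in that comparison. Whether any of these are among the 136 was not examined. The 1 h libraries were all on lane 1, but the diets were compared within a lane.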

How the data were processed

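Gill RNA (second left gill arch) was sequenced as paired-end reads from stranded mRNA libraries, and the authors deposited raw counts of fragments per gene, made with featureCounts (Subread 1.5.1) on the Ssal_v3.1 assembly after the nf-core rnaseq pipeline. The counting was reverse-stranded and left out fragments that mapped to several places, so genes with near-identical copies are uncertain. Coordinates are those of the deposited count tables. Counts cover 69389 genes, and RefSeq names were given to 25266 of the 42615 genes used, where both spans overlapped by at least 0.5.

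Genes were kept with filterByExpr, normalized with TMM on the chromosomes used and fitted with 1 mean per group over all 18 libraries (edgeR 4.0.16, robust quasi-likelihood test, R 4.3.3). DESeq2 1.42.0 and other settings were alternatives, and the script was tested on simulated data. DESeq2 on the 6 libraries of 6 h was added after seeing the data. Named genes were the 12 largest increases and 12 largest decreases among called genes whose diets did not overlap and whose mean log2 CPM reached 1, the called members of each list, and the 2 members with the lowest p in each list described. The 35 lists were matched by RefSeq symbol or synonym, and most of the genes used have no symbol other than a LOC number. The members and lists were chosen with earlier results of these data known. No list was tested. A gene that met the rule is not reported here. The p-values measure the spread between fish, which may have shared tanks, so the fish of a group may not be independent replicates of the diet.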

Additional observations from a re-analysis of the deposited data

Results flagged for a closer look

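The diet difference changed with the sampling time in 5 genes, by the interaction test of edgeR, and all are named after their values were seen. ENSSSAG00000092807 (chromosome 9, adjusted p = 0.0211 for 6 h against 1 h) was at 10.9 ± 1.85 CPM in CD fish against 5.59 ± 1.25 CPM in LAN4 fish at 1 h (SD, n = 3), but at 4.37 ± 0.80 CPM against 9.87 ± 1.75 CPM at 6 h. LOC106565529 (chromosome 12, adjusted p = 0.0211) was at 23.1 ± 1.43 CPM in CD fish against 15.4 ± 1.47 CPM in LAN4 fish at 1 h, but at 9.52 ± 0.70 CPM against 14.7 ± 0.63 CPM at 6 h. LOC106591130 (chromosome 5, adjusted p = 0.0413) was at 14.4 ± 3.33 CPM in CD fish against 7.02 ± 0.45 CPM in LAN4 fish at 1 h, but at 5.10 ± 0.48 CPM against 11.1 ± 2.71 CPM at 6 h. In LOC106604293 (chromosome 5, adjusted p = 0.0353) the order was the other way, with 34.7 ± 3.1 CPM in CD fish against 49.8 ± 1.19 CPM in LAN4 fish at 1 h, but 51.1 ± 2.19 CPM against 41.8 ± 3.62 CPM at 6 h.

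LOC123724424 (chromosome 10, adjusted p = 0.0189 for 6 h against pre-stress) had 0 counts in each CD fish at pre-stress and 29, 31 and 22 in the LAN4 fish. At 1 h it had 53, 38 and 45 counts in CD and 29, 43 and 49 in LAN4. At 6 h it had 75, 38 and 25 counts in CD and 28, 59 and 35 in LAN4, and the diets overlapped.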

How the results depend on the processing

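The calls at 6 h depended on the model. Higher and lower genes numbered 118 and 18 as reported, 182 and 22 with no filter on low counts, 31 and 2 with only the 6 libraries, 593 and 218 with DESeq2, 496 and 155 with DESeq2 on the 6 libraries (chosen after seeing the data), and 0 and 0 with all genes of the files in the model (5190 at an unadjusted p under 0.05). The setting with all genes, here and below, includes chromosomes on which 6 h libraries lack counts, so its numbers mix diet differences with missing counts. Among the reported 118 and 18 were 115 and 16 of the calls with no filter, 12 and 1 of those with only the 6 libraries, and 109 and 15 of those with DESeq2 on the 6 libraries. Leaving out 1 library gave 0 to 109 higher and 0 to 30 lower genes. RLE size factors kept all 136 calls and moved no list median by more than 0.01. Same-numbered libraries of the diets had correlations of 0.06, 0.04 and -0.14 in their deviations, and differently numbered ones lay between -0.267 and 0.235. With 3 fish per diet, these values cannot show whether the numbers pair the fish. The replicate block gave 154 higher and 59 lower genes, of which 87 and 14 were among the 118 and 18.

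For the change from 1 h to 6 h, the counts were 3 upward and 1 downward as reported, 8 and 6 with no filter, 45 and 32 with the replicate block, 1 and 1 with all genes, 0 and 0 with only the 12 libraries, and 331 and 239 with DESeq2. They were 0 to 57 and 0 to 44 when 1 library was left out. From pre-stress to 6 h they were 0 and 1 as reported, 2 and 6 with DESeq2, and 0 downward with the block, with all genes or with only the 12 libraries. With 1 library left out they were 0 to 2 and 0 to 1.

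When 1 library was left out, the medians of 14 of 35 lists moved by more than the spread between fish in at least 1 such fit. Their ranges were 1.68 to 3.01 for skeletal muscle, 1.95 to 2.84 for creatine kinases, 0.35 to 0.52 for collagen modification, 0.45 to 0.74 for matrix glycoproteins, 0.77 to 1.06 for cartilage, 0.18 to 0.28 for metalloproteinases, 0.01 to 0.13 for glycolytic enzymes, 0.11 to 0.34 for complement, -0.50 to -0.15 for erythrocyte markers, -0.60 to -0.14 for interferon-stimulated genes and -0.17 to -0.026 for galactose and nucleotide sugars. Of these 14, the medians changed sign for desmosomes and catenins (-0.11 to 0.071, the highest without CD replicate 3), T and NK cells (-0.221, without LAN4 replicate 1, to 0.17) and B and plasma cells (-0.12 to 0.36). They also changed sign, within the spread between fish, for 6 of the other lists. In 26 of 35 lists the sign was the same in all 6 such fits. Of the values of the 93 named genes under these settings, 944 kept the side of the threshold, 208 lost a call and 55 gained one, and the direction never reversed where called. For called genes, whose diets did not overlap, the direction was nearly fixed in advance.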
